A study of Mus musculus with 18 samples.

Results

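Complement genes were followed in the livers of 18 mice by RNA-seq. The set was fixed by gene symbol: 30 genes for components, regulators and receptors of the complement system, out of 35441 genes in the count table, and all 30 were present and among the 14533 genes tested. From textbook knowledge, 7 were placed in a macrophage class (C1qa, C1qb, C1qc, Cfp, C3ar1, C5ar1 and C5ar2), 15 in a hepatocyte class (C2, C3, C4b, C4bp, Cfb, Cfi, Hc, C6, C8a, C8b, C8g, C9, Masp2, Mbl1 and Mbl2) and 8 in a class made by several cell types (C1ra, C1s1, C7, Cfd, Masp1, Serping1, Cd55 and Cd59a). Whole liver was sequenced, so the classes name a usual source and not cells that were separated here. Fewer cells of a type and less RNA per cell cannot be told apart in such samples.

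The study compared WT mice, Lipa-/- mice and Lipa-/- mice that received rAAV8.hAAT.LIPA, an adeno-associated viral vector carrying the human LIPA cDNA. Lipa encodes lysosomal acid lipase, which hydrolyses cholesteryl esters and triglycerides in lysosomes. In the Lipa-/- mice exon 4 was removed in all tissues with a Cre recombinase under the CMV promoter, on a C57/BL6N background, and the WT mice were littermate controls. The vector uses the hAAT promoter, which is active in hepatocytes, and its product carries an HA tag. Each kind of mouse was examined at 12-weeks and 34-weeks post-injection, with 3 male mice in each of the 6 groups. The labels give the same times as 3 and 8 months. The vector was given intravenously to young adult mice. Most untreated Lipa-/- mice assigned to 34-weeks had to be killed earlier at predefined endpoints, so their true time can be shorter than the label. The 34-weeks samples carry 1 study code and the 12-weeks samples another, except Lipa-/- mouse 5 of 12-weeks, which has a code of its own, so time and code cannot be told apart.

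Complement is a cascade of plasma proteins that marks and lyses targets and recruits phagocytes. The classical pathway starts with C1q bound to C1r and C1s, the lectin pathway with mannose-binding lectins and the MASP proteases, and the alternative pathway with factor B, factor D and properdin. All of them converge on cleavage of C3, after which C5 to C9 assemble the membrane attack complex. Hepatocytes make most of the plasma components, whereas C1q and properdin come mainly from macrophages and other myeloid cells, which also carry the receptors for the C3a and C5a fragments.

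Between 17527848 and 25833134 reads per library were assigned to genes. Levels are given as CPM, read counts set to a common library size with edgeR's TMM factors, in the order of the mouse numbers in the labels: WT mice 1, 2 and 3, Lipa-/- mice 5, 8 and 9 and treated mice 10, 11 and 12 at 12-weeks, then WT mice 1, 2 and 3, Lipa-/- mice 4, 5 and 6 and treated mice 9, 11 and 12 at 34-weeks. To be called, a gene needed a log2 fold change beyond 1 in either direction and an adjusted p under 0.05 in edgeR's quasi-likelihood test over all tested genes. The TMM factors spanned 0.587 to 1.69. When libraries were scaled by total counts alone, the median log2 fold change of all tested genes between Lipa-/- and WT mice moved to 0.485 from 0.0184 at 12-weeks and to 0.602 from -0.0266 at 34-weeks, and that between treated and untreated Lipa-/- mice at 12-weeks from -0.187 to -1.05. Lipa lay between 62.2 and 133 TPM (transcript abundance scaled for length and library) in WT mice and between 5.37 and 14.1 TPM in the other groups, and the vector's hLIPA between 519 and 2493 TPM in treated mice, 0 in untreated Lipa-/- mice and at most 0.986 TPM in WT mice.

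Levels of the members were compared with each other in WT liver at 12-weeks on the TPM scale, which accounts for transcript length. C3, the central component, was the most abundant at 968 ± 340.0 TPM (mean ± SD, n = 3). It was above C8g, a chain of the C8 complex, at 586 ± 61.4 TPM in every mouse, while C8g and Cfb, which encodes factor B, at 484 ± 55.5 TPM, overlapped. The next group, from C9 at 282 ± 14.3 TPM to Hc, the gene of C5, at 142 ± 24.5 TPM, held 12 genes in which each neighbour in the order overlapped the next. The C1q chains were lower, with 42.1 ± 16.0 TPM for C1qa, 28.1 ± 14.2 TPM for C1qb and 22.2 ± 5.04 TPM for C1qc. At the low end lay the receptors C3ar1 at 0.228 ± 0.0536 TPM and C5ar1 at 0.188 ± 0.0771 TPM, and C7, a component of the membrane attack complex, at 0.133 ± 0.0963 TPM, which overlapped one another.

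In untreated Lipa-/- mice, most genes of the macrophage class rose, and some genes of the hepatocyte class fell, more of them at 34-weeks. At 12-weeks, 12 of the 30 members were called, 7 higher and 5 lower, where 29.3% of all tested genes were called, 20.2% higher and 9.06% lower. At 34-weeks, 17 members were called, 7 higher and 10 lower, where 36.3% of all tested genes were called, 20.5% higher and 15.7% lower. By class, 6 of 7 macrophage-class genes rose at each time, and 5 of 15 hepatocyte-class genes fell at 12-weeks and 9 of 15 at 34-weeks. The median log2 fold change of the macrophage class was 3.26 at 12-weeks and 2.54 at 34-weeks. That of the hepatocyte class was -0.75 and -1.32, and under limma on TPM values it was 0.03 at 12-weeks and -0.61 at 34-weeks, so the direction of the class as a whole at 12-weeks depended on the scale. The groups did not overlap for 19 members at 12-weeks, where 52.7% of all tested genes did not overlap, and for 20 at 34-weeks, where the share was 60.3%.

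**Figure D1:**
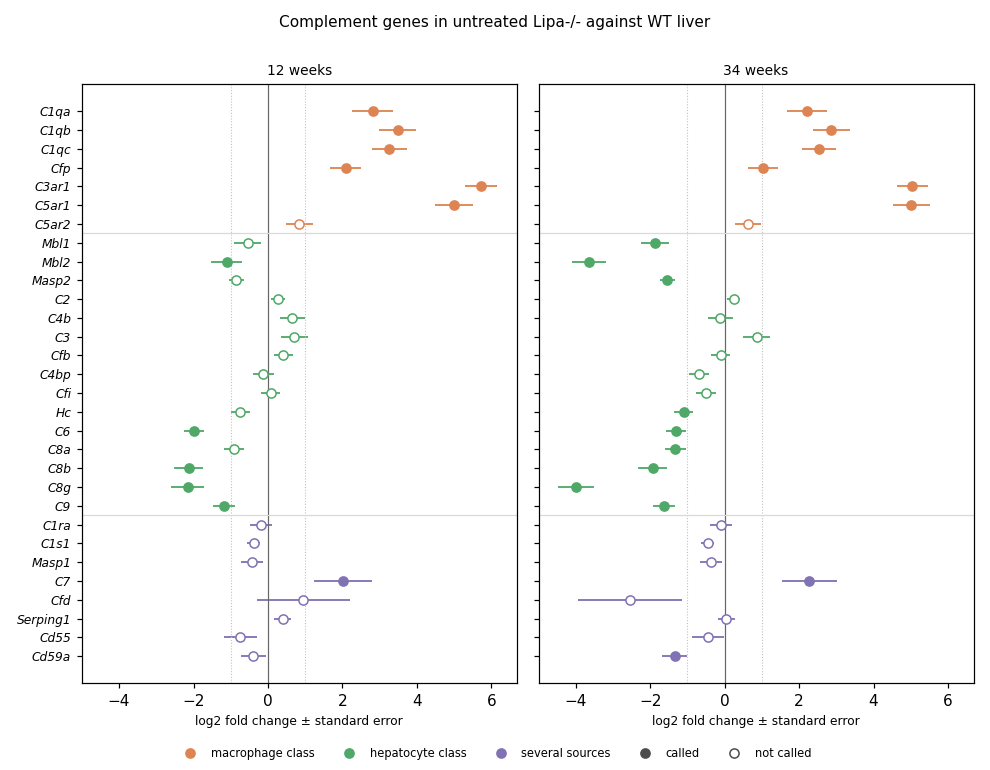
Log2 fold change (x axis, with its standard error) of each of the 30 complement genes in untreated Lipa-/- against WT livers at 12-weeks and 34-weeks post-injection, coloured by class, with filled points for called genes and dotted lines at -1 and 1. The C1q chains, Cfp, C3ar1 and C5ar1 lie to the right of 1 at both times, and C6, C8b, C8g, C9 and Mbl2 to the left of -1.

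The C1q chains assemble into the recognition molecule of the classical pathway. In GRCm39 their genes are neighbours on chromosome 4 and all are read from the minus strand, C1qb at chr4:136606009-136613511, C1qc at chr4:136616466-136620376 and C1qa at chr4:136623223-136626161. Since the neighbouring genes moved together in these livers, the 200 bases before each annotated start are shown, read 5′ to 3′ on the gene's strand, with matches to the PU.1 motif GAGGAA in capitals on either strand. They end at the base before the start, at chr4:136626162-136626361 for C1qa, chr4:136613512-136613711 for C1qb and chr4:136620377-136620576 for C1qc.
C1qa: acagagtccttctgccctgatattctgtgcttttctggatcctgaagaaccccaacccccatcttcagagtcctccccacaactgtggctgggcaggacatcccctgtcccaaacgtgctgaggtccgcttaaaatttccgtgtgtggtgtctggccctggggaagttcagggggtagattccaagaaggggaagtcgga
C1qb: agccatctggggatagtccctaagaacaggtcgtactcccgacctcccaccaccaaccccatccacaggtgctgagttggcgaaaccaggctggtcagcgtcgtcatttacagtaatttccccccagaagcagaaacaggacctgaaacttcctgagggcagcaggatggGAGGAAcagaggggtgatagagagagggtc
C1qc: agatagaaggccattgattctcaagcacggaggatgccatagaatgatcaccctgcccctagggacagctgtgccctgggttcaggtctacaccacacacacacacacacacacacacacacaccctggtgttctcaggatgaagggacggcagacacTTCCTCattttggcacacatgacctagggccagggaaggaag
PU.1 is a transcription factor of myeloid cells. The match in C1qb began 30 bases before the start on the gene's strand, and that in C1qc 42 bases before it on the opposite strand, as TTCCTC. Of the 7 macrophage-class genes 2 held the motif in this window, as did 18.8% of 21757 protein-coding promoters of the same length. The match is a description of letters, and binding was not measured.

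C1qa held 35.8, 62.9 and 24.4 CPM in WT and 311, 407 and 149.8 CPM in Lipa-/- mice at 12-weeks. Every Lipa-/- mouse lay above every WT mouse. At 34-weeks C1qa held 76.6, 65.1 and 35.9 CPM in WT and 213, 507 and 106 CPM in Lipa-/- mice. The groups again did not overlap, although mouse 5 was far above mouse 6 within the Lipa-/- group. C1qa rose 7.05-fold at 12-weeks (log2 fold change 2.82 ± 0.55 SE, edgeR adjusted p = 0.000698) and 4.65-fold at 34-weeks (log2 fold change 2.22 ± 0.54 SE, edgeR adjusted p = 0.0028).

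C1qb held 25.4, 48.5 and 13.9 CPM in WT and 308, 425 and 252 CPM in Lipa-/- mice at 12-weeks. All 3 Lipa-/- mice were far above the WT mice. At 34-weeks C1qb held 49.2, 48.6 and 25.8 CPM in WT and 248, 502 and 151 CPM in Lipa-/- mice, with no overlap and with mouse 5 again the highest. C1qb rose, with a log2 fold change of 3.49 ± 0.50 (SE, edgeR adjusted p = 4.31e-05) at 12-weeks and 2.87 ± 0.49 (SE, edgeR adjusted p = 0.000147) at 34-weeks. C1qc held 23.7, 35.4 and 18.3 CPM in WT and 246, 351 and 147 CPM in Lipa-/- mice at 12-weeks. The groups were apart there, and at 34-weeks C1qc held 44.0, 54.5 and 29.5 CPM in WT and 226, 405 and 111 CPM in Lipa-/- mice, also apart. C1qc rose, with a log2 fold change of 3.26 ± 0.47 (SE, edgeR adjusted p = 4.18e-05) at 12-weeks and 2.54 ± 0.45 (SE, edgeR adjusted p = 0.000231) at 34-weeks.

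The chains did not rise in the same proportion. Within each library the TPM of C1qb per TPM of C1qa was 0.645 ± 0.0958 (SD, n = 3) in WT mice and 1.17 ± 0.363 in Lipa-/- mice at 12-weeks, and 0.663 ± 0.0506 and 1.13 ± 0.210 at 34-weeks. At both times the lowest Lipa-/- library, at 0.935 and 0.933, was above the highest WT library, at 0.726 and 0.705. C1qc per C1qa was 0.548 ± 0.0808 and 0.728 ± 0.0805 at 12-weeks, with no overlap, and 0.620 ± 0.122 and 0.806 ± 0.125 at 34-weeks, where the groups overlapped. The smallest p that an exact permutation of 3 and 3 mice allows is 0.1, and ratios are therefore given without a p.

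The receptor genes C3ar1 and C5ar1 had the largest log2 fold changes among the members. C3ar1 encodes the receptor of C3a on myeloid cells. C3ar1 held 1.29, 0.909 and 1.05 CPM in WT and 50.1, 59.6 and 61.7 CPM in Lipa-/- mice at 12-weeks. The Lipa-/- mice were far above the WT mice and close to each other. At 34-weeks C3ar1 held 1.65, 3.19 and 1.64 CPM in WT and 77.7, 87.6 and 50.1 CPM in Lipa-/- mice, again without overlap. The log2 fold change was 5.72 ± 0.43 (SE, edgeR adjusted p = 7.76e-08) at 12-weeks, a 52.7-fold rise, and 5.04 ± 0.41 (SE, edgeR adjusted p = 1.49e-07) at 34-weeks, a 32.9-fold rise.

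C5ar1 encodes the main receptor of C5a, found on neutrophils and macrophages. C5ar1 held 0.322, 0.526 and 0.628 CPM in WT and 16.2, 16.5 and 15.4 CPM in Lipa-/- mice at 12-weeks. In WT mice these were between 4 and 23 reads over both times, so the denominators of the folds are small. At 34-weeks C5ar1 held 0.236, 0.906 and 0.740 CPM in WT and 19.9, 25.8 and 17.6 CPM in Lipa-/- mice, with the Lipa-/- mice all above the WT mice. C5ar1 rose, with a log2 fold change of 5.01 ± 0.51 (SE, edgeR adjusted p = 1.27e-06) at 12-weeks and 5.01 ± 0.49 (SE, edgeR adjusted p = 7.31e-07) at 34-weeks. C5ar2, the second C5a receptor, encoded next to C5ar1 on chromosome 7, was not called, with a log2 fold change of 0.85 ± 0.36 (SE, edgeR adjusted p = 0.0692) at 12-weeks and 0.63 ± 0.35 (SE, edgeR adjusted p = 0.15) at 34-weeks. Scaling by total counts alone called it higher at both times, with log2 fold changes of 1.33 and 1.24.

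Cfp encodes properdin, which stabilises the C3 convertase of the alternative pathway. Cfp held 17.0, 26.6 and 9.58 CPM in WT and 73.8, 81.7 and 70.8 CPM in Lipa-/- mice at 12-weeks. The Lipa-/- mice were close together and above the WT mice. At 34-weeks Cfp held 38.0, 30.8 and 15.4 CPM in WT and 62.5, 59.8 and 49.4 CPM in Lipa-/- mice, still without overlap but nearer to each other. Cfp rose, with a log2 fold change of 2.09 ± 0.42 (SE, edgeR adjusted p = 0.000913) at 12-weeks and 1.03 ± 0.41 (SE, edgeR adjusted p = 0.0482) at 34-weeks, and the call at 34-weeks was lost in 5 of the 6 fits that left out a mouse of the groups compared, all but the fit without WT mouse 1.

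**Figure D2:**
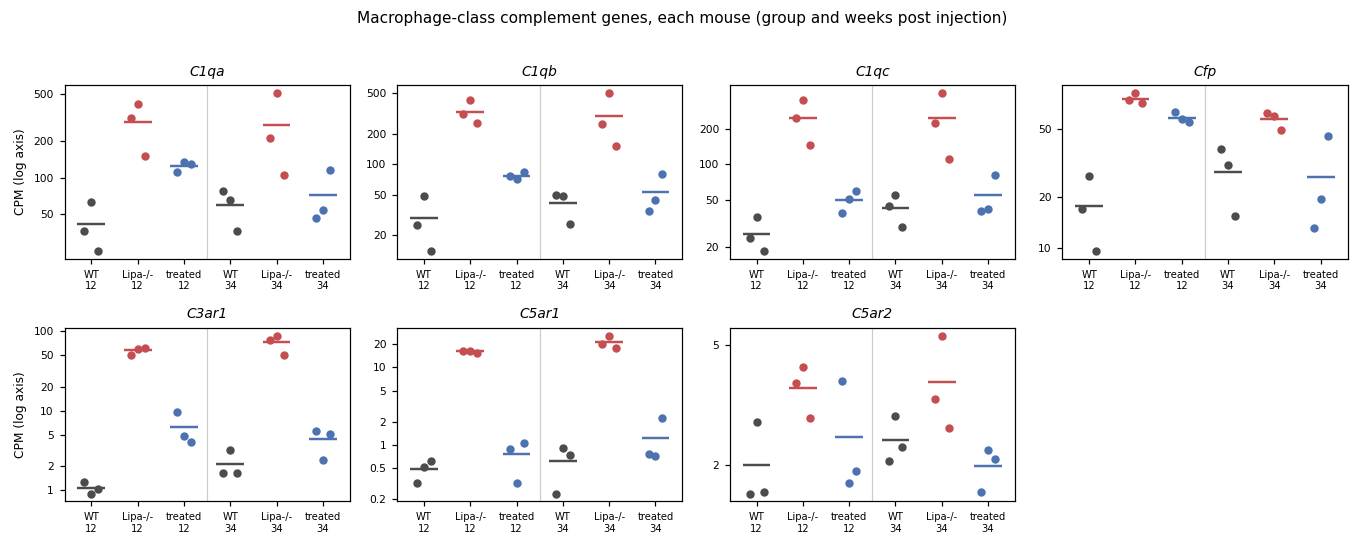
CPM on a log axis of the 7 macrophage-class genes in each mouse (points) with the group mean (bars), for WT, Lipa-/- (KO) and rAAV8-treated Lipa-/- (KOT) mice at 12-weeks and 34-weeks post-injection. The untreated Lipa-/- mice stand above the WT mice at both times in all panels but C5ar2, by most in C3ar1 and C5ar1.

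Markers of myeloid cells moved with these genes. Of 8 macrophage markers, 7 rose at 12-weeks and 8 at 34-weeks. Their summed level spanned 96.1 to 161 CPM in WT and 2723 to 6182 CPM in Lipa-/- mice at 12-weeks, and 141 to 252 and 2320 to 4053 CPM at 34-weeks, and each was detected in every library. Of 8 neutrophil markers, 8 and 7 rose, with sums of 2.47 to 2.87 CPM in WT and 146 to 1675 CPM in Lipa-/- mice at 12-weeks, and Camp, Ngp, Ltf, Mmp8 and Retnlg were at 0 in some libraries. Of 6 markers of Kupffer cells, the resident macrophages of the liver, 2 rose and 1 fell at 12-weeks and 3 fell at 34-weeks, and the Kupffer cell marker Timd4 was at 0 in Lipa-/- mouse 9 at 12-weeks and mouse 6 at 34-weeks. The part of these markers in the rise of C1q, properdin and the receptors was not tested.

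Against these markers the members differed. Summed TPM of the C1q chains per 100 TPM of the 8 macrophage markers was 148 ± 4.13 (SD, n = 3) in WT and 27.2 ± 15.0 in Lipa-/- mice at 12-weeks, and 127 ± 22.1 and 32.1 ± 12.8 at 34-weeks. All Lipa-/- libraries were below all WT libraries at both times. In Lipa-/- mice Lyz2 alone held 75.8% to 90.9% of that marker sum at 12-weeks, where it held 44.7% to 74.7% in WT mice. The direction turned with the marker at 12-weeks, since C1q per 100 TPM of Cd68 was 2446 ± 437 and 244 ± 85.4, whereas per 100 TPM of Csf1r, the receptor of the macrophage growth factor CSF1, it was 2267 ± 684 and 3479 ± 577. At 34-weeks C1q per 100 TPM of Cd68 was 2061 ± 434 and 240 ± 99.1. Per 100 TPM of Csf1r it was then 2336 ± 1752 and 3469 ± 1596, and those groups overlapped. C3ar1 per 100 TPM of Csf1r was 5.78 ± 1.91 in WT and 52.2 ± 19.5 in Lipa-/- mice at 12-weeks, and 6.51 ± 2.22 and 68.4 ± 6.68 at 34-weeks, without overlap. C5ar1 per 100 TPM of Csf1r was 4.63 ± 1.81 and 26.0 ± 6.54 at 12-weeks, and 3.05 ± 0.877 and 37.3 ± 9.40 at 34-weeks. Against Cd68 neither receptor was higher, with C3ar1 at 7.20 ± 4.06 per 100 TPM in WT and 3.43 ± 0.550 in Lipa-/- mice at 12-weeks and 6.59 ± 1.55 and 4.76 ± 0.402 at 34-weeks, and C5ar1 at 5.82 ± 4.31 and 1.74 ± 0.0520 and at 3.54 ± 1.94 and 2.55 ± 0.261, with overlap at 34-weeks for both and at 12-weeks for C3ar1. Per 100 TPM of Csf3r, a receptor gene of neutrophils, C5ar1 was 83.3 ± 50.2 and 125 ± 16.5 at 12-weeks, overlapping, and 65.5 ± 47.6 and 229 ± 85.6 at 34-weeks, apart. C1q per 100 TPM of Adgre1 was 3920 ± 1121 and 8918 ± 5653 at 12-weeks, where the groups overlapped. At 34-weeks it was 3283 ± 394 and 5958 ± 3364, apart by a small margin.

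The C1q-associated proteases behaved differently from C1q. C1ra, which encodes C1r, gave a log2 fold change of -0.18 ± 0.30 (SE, edgeR adjusted p = 0.671) at 12-weeks and -0.10 ± 0.30 (SE, edgeR adjusted p = 0.815) at 34-weeks. C1s1, which encodes C1s, was lower in CPM in every Lipa-/- mouse than in every WT mouse at both times. It was not called, with a log2 fold change of -0.39 ± 0.17 (SE, edgeR adjusted p = 0.077) and -0.46 ± 0.17 (SE, edgeR adjusted p = 0.0318). In TPM the C1s1 groups overlapped, at 162.5 ± 29.2 (SD, n = 3) in WT and 161.5 ± 6.30 in Lipa-/- mice at 12-weeks. At 34-weeks they also overlapped, at 178 ± 58.5 and 192 ± 27.4. C1ra in TPM was 81.2 ± 12.0 and 97.9 ± 12.2 at 12-weeks, overlapping. At 34-weeks it was 73.0 ± 21.9 and 105 ± 1.63, with all Lipa-/- mice higher. Reads of C1rb and C1s2, near copies of C1ra and C1s1, were few, at most 0.387 CPM in any mouse.

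Of the lectin pathway genes, Mbl2 fell at both times and Mbl1 and Masp2 at 34-weeks. Mbl1 and Mbl2 encode the mannose-binding lectins A and C of the mouse. Mbl2 held 240.2, 321 and 262 CPM in WT and 133, 179.7 and 70.2 CPM in Lipa-/- mice at 12-weeks. The groups did not overlap, with Lipa-/- mouse 9 lowest. At 34-weeks Mbl2 held 515, 305 and 362 CPM in WT and 29.8, 29.2 and 34.9 CPM in Lipa-/- mice. All 3 Lipa-/- mice were then far below every WT mouse and close to each other. Mbl2 fell at 12-weeks (log2 fold change -1.10 ± 0.42 SE, edgeR adjusted p = 0.045) and at 34-weeks (log2 fold change -3.65 ± 0.46 SE, edgeR adjusted p = 7.72e-06). The call at 12-weeks was lost under total counts (-0.64), limma on TPM (-0.72) and upper quartile factors, and in 5 of 6 fits with a mouse left out, all but that without Lipa-/- mouse 8. At 34-weeks it was made under all alternatives.

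Mbl1 held 219, 262 and 175 CPM in WT and 149.9, 182 and 117 CPM in Lipa-/- mice at 12-weeks. The groups overlapped there. At 34-weeks Mbl1 held 429, 166 and 162 CPM in WT and 46.4, 90.2 and 70.9 CPM in Lipa-/- mice, without overlap. Mbl1 gave a log2 fold change of -0.55 ± 0.37 (SE, edgeR adjusted p = 0.259) at 12-weeks, not called, and fell, with a log2 fold change of -1.87 ± 0.38 (SE, edgeR adjusted p = 0.000693) at 34-weeks, a call that limma on TPM lost, with -0.985 and an adjusted p of 0.00549. Masp2 encodes the protease that cleaves C4 and C2 in this pathway. Masp2 held 228, 247 and 209 CPM in WT and 131, 138 and 110.4 CPM in Lipa-/- mice at 12-weeks. Here too the Lipa-/- mice were below all WT mice. At 34-weeks Masp2 held 216, 188 and 179 CPM in WT and 48.4, 64.9 and 87.4 CPM in Lipa-/- mice, further apart. Masp2 gave a log2 fold change of -0.85 ± 0.20 (SE, edgeR adjusted p = 0.0031) at 12-weeks, short of the fold threshold, and -1.54 ± 0.21 (SE, edgeR adjusted p = 1.4e-05) at 34-weeks, which under total counts was -0.92 and no call. Masp1, the other protease of the pathway, was not called at either time, with a log2 fold change of -0.44 ± 0.29 (SE, edgeR adjusted p = 0.256) and -0.38 ± 0.29 (SE, edgeR adjusted p = 0.313).

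The components around the C3 convertases were not called lower at either time. C3 held 3370, 2823 and 5087 CPM in WT and 7882, 6250 and 4202 CPM in Lipa-/- mice at 12-weeks. Lipa-/- mouse 9 lay within the WT range and the others above it. At 34-weeks C3 held 3170, 5796 and 4284 CPM in WT and 6167, 9729 and 8151 CPM in Lipa-/- mice, with all Lipa-/- mice above the WT mice. C3 gave a log2 fold change of 0.70 ± 0.36 (SE, edgeR adjusted p = 0.139) at 12-weeks and 0.86 ± 0.36 (SE, edgeR adjusted p = 0.0614) at 34-weeks, not called, while total counts called it higher at both times with 1.15 and 1.44 and limma on TPM with 1.33 and 1.52. Cfb, the protease subunit of the alternative convertase, gave a log2 fold change of 0.41 ± 0.26 (SE, edgeR adjusted p = 0.217) and -0.11 ± 0.25 (SE, edgeR adjusted p = 0.76), while limma on TPM called it higher at 12-weeks with 1.51 and turned its direction at 34-weeks with 0.91, not called. C2, its counterpart in the classical pathway, gave a log2 fold change of 0.26 ± 0.18 (SE, edgeR adjusted p = 0.275) and 0.24 ± 0.18 (SE, edgeR adjusted p = 0.302). C2 and Cfb are neighbours on chromosome 17, and Gm20547, a gene model spanning both, held 0 to 16.3 CPM.

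C4b, which encodes C4, gave a log2 fold change of 0.66 ± 0.34 (SE, edgeR adjusted p = 0.136) at 12-weeks and -0.11 ± 0.34 (SE, edgeR adjusted p = 0.806) at 34-weeks, and its direction at 34-weeks turned with the unit, since limma on TPM gave 1.21 and a call, as it did at 12-weeks with 1.88. The near copy C4a was not analysed here, so reads shared with it cannot be told apart. The inhibitors acting on these steps were not called: C4bp, the C4b-binding protein, gave a log2 fold change of -0.12 ± 0.28 (SE, edgeR adjusted p = 0.756) and -0.69 ± 0.28 (SE, edgeR adjusted p = 0.0506). Cfi, the protease that cleaves C3b and C4b, gave a log2 fold change of 0.07 ± 0.26 (SE, edgeR adjusted p = 0.851) and -0.51 ± 0.26 (SE, edgeR adjusted p = 0.127). Limma on TPM turned the direction of C4bp at 12-weeks, to 0.17, and of Cfi at 34-weeks, to 0.18, and called neither.

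Most genes of the terminal pathway were lower in Lipa-/- mice. C6 joins C5b to start the membrane attack complex. C6 held 209, 219 and 201 CPM in WT and 53.8, 63.1 and 41.5 CPM in Lipa-/- mice at 12-weeks. All Lipa-/- mice were far below all WT mice. At 34-weeks C6 held 88.5, 77.9 and 80.1 CPM in WT and 36.5, 35.9 and 26.5 CPM in Lipa-/- mice, again apart, with the WT mice themselves lower than at 12-weeks. C6 fell, with a log2 fold change of -1.99 ± 0.28 (SE, edgeR adjusted p = 3.07e-05) at 12-weeks and -1.32 ± 0.27 (SE, edgeR adjusted p = 0.000785) at 34-weeks. The call at 34-weeks was lost under total counts, at -0.66, and limma on TPM, at -0.65.

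C8 consists of an alpha, a beta and a gamma chain. C8a and C8b are neighbours on chromosome 4, C8b at chr4:104623328-104662573 and C8a at chr4:104672876-104733614, while C8g lies on chromosome 2 at chr2:25388657-25391771. C8g held 614, 703 and 455 CPM in WT and 119.7, 166 and 113 CPM in Lipa-/- mice at 12-weeks. Every Lipa-/- mouse was far below every WT mouse. At 34-weeks C8g held 1185, 376 and 398 CPM in WT and 28.6, 40.7 and 54.0 CPM in Lipa-/- mice, and WT mouse 1 was far above the other WT mice. C8g fell, with a log2 fold change of -2.15 ± 0.44 (SE, edgeR adjusted p = 0.00102) at 12-weeks and -3.99 ± 0.48 (SE, edgeR adjusted p = 4.85e-06) at 34-weeks, the largest fall of any member there, and was called under all alternatives at both times.

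C8b held 504, 509 and 335 CPM in WT and 86.1, 130.1 and 91.5 CPM in Lipa-/- mice at 12-weeks. The groups were clearly apart. At 34-weeks C8b held 327, 126 and 100.3 CPM in WT and 38.3, 45.1 and 60.9 CPM in Lipa-/- mice, with WT mouse 1 above the others. C8b fell, with a log2 fold change of -2.13 ± 0.40 (SE, edgeR adjusted p = 0.000454) and -1.94 ± 0.40 (SE, edgeR adjusted p = 0.000707) and was called under all alternatives at both times. C8a held 455, 434 and 542 CPM in WT and 282, 298 and 179.6 CPM in Lipa-/- mice at 12-weeks. The Lipa-/- mice were below all WT mice but by less. At 34-weeks C8a held 494, 494 and 291 CPM in WT and 132, 201 and 175 CPM in Lipa-/- mice, apart again. C8a gave a log2 fold change of -0.91 ± 0.28 (SE, edgeR adjusted p = 0.0154) at 12-weeks, short of the fold threshold and turned to 0.25 with limma on TPM, and -1.33 ± 0.28 (SE, edgeR adjusted p = 0.000968) at 34-weeks, where total counts gave -0.70 and limma on TPM -0.17, neither called.

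The chains thus changed to different extents within a library, which no scaling between libraries affects. The TPM of C8g per TPM of C8a was 4.69, 4.87 and 2.64 in WT and 0.738, 1.30 and 1.49 in Lipa-/- mice at 12-weeks, and 6.34, 2.45 and 4.45 and 0.578, 0.443 and 0.691 at 34-weeks. Lipa-/- libraries were below all WT libraries at both times. C8b per C8a was 1.32 ± 0.435 (SD, n = 3) in WT and 0.382 ± 0.150 in Lipa-/- mice at 12-weeks. At 34-weeks it was 0.520 ± 0.189 and 0.270 ± 0.0675, and neither time had overlap in TPM. TPM also rests on a gene length estimated in each library. In reads the C8b per C8a groups overlapped at 34-weeks. There WT mouse 2 held 3200 reads of C8b and 12523 of C8a, and Lipa-/- mouse 6 held 1657 and 4772.

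C9 forms the ring of the membrane attack complex. C9 held 605, 605 and 474 CPM in WT and 250.1, 284 and 214 CPM in Lipa-/- mice at 12-weeks. No values overlapped. At 34-weeks C9 held 578, 358 and 263 CPM in WT and 97.8, 125 and 163 CPM in Lipa-/- mice, also apart. C9 fell, with a log2 fold change of -1.17 ± 0.30 (SE, edgeR adjusted p = 0.00499) at 12-weeks and -1.63 ± 0.30 (SE, edgeR adjusted p = 0.000299) at 34-weeks, and total counts gave -0.70 and -0.97, neither called. In TPM C9 was 282 ± 14.3 (SD, n = 3) in WT and 223 ± 48.3 in Lipa-/- mice at 12-weeks. At 34-weeks it was 228 ± 49.0 and 141 ± 20.1, and neither time had overlap. Hc encodes C5, the entry point of the terminal pathway. Hc held 562, 481 and 593 CPM in WT and 365, 344 and 265 CPM in Lipa-/- mice at 12-weeks. Here the Lipa-/- mice were all lower. At 34-weeks Hc held 527, 715 and 447 CPM in WT and 203, 251 and 332 CPM in Lipa-/- mice, without overlap. Hc gave a log2 fold change of -0.75 ± 0.26 (SE, edgeR adjusted p = 0.0281) at 12-weeks, short of the fold threshold, and -1.10 ± 0.26 (SE, edgeR adjusted p = 0.00205) at 34-weeks, where total counts gave -0.51 and limma on TPM -0.61, neither called. In TPM the 12-weeks groups of Hc overlapped, at 142 ± 24.5 in WT and 124 ± 22.4 in Lipa-/- mice.

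C7 was the exception in direction. C7 held 0.107, 0.431 and 0.576 CPM in WT and 1.17, 1.36 and 2.06 CPM in Lipa-/- mice at 12-weeks, which in WT mice were only 2 to 11 reads. The Lipa-/- mice were all above the WT mice. At 34-weeks C7 held 0.295, 0.946 and 0.350 CPM in WT and 3.60, 2.44 and 1.87 CPM in Lipa-/- mice, apart again. C7 rose, with a log2 fold change of 2.02 ± 0.77 (SE, edgeR adjusted p = 0.0478) at 12-weeks, a call lost whichever mouse was left out, and with 2.28 ± 0.74 (SE, edgeR adjusted p = 0.0182) at 34-weeks, lost without WT mouse 1, WT mouse 3 or Lipa-/- mouse 4. Markers of stellate cells and fibroblasts rose in the same mice, 5 of 8 at 12-weeks, where 1 fell, and 6 of 8 at 34-weeks, where 2 fell, and their sum went from 105 to 207 CPM in WT to 760 to 1212 CPM in Lipa-/- mice at 12-weeks. Their part in the change of C7 was not tested.

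Promoters of 3 of the genes that fell are shown for the letters before their starts, with matches to the letters GTTAAT, one arm of the HNF1 site, and to GAGGAA in capitals on either strand, again as the 200 bases before the start on the gene's strand in GRCm39. HNF1 is a transcription factor family of hepatocytes. They lie at chr15:4756325-4756524 for C6 on the plus strand, chr4:104733615-104733814 for C8a on the minus strand and chr19:30210112-30210311 for Mbl2 on the plus strand.
C6: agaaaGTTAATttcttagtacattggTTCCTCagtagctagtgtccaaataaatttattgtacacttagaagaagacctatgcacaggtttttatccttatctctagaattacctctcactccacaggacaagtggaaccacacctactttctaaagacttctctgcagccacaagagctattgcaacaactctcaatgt
C8a: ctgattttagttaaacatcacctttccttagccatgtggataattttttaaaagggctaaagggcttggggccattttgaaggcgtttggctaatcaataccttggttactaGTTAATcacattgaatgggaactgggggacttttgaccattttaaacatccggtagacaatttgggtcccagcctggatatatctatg
Mbl2: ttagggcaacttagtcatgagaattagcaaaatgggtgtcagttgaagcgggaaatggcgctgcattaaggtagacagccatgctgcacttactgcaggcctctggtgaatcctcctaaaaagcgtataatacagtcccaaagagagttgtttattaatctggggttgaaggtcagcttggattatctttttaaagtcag
In C6 GTTAAT began 195 bases before the start and TTCCTC 174 bases before it, in C8a GTTAAT began 88 bases before the start, and Mbl2 held no match in this window. Of the 15 hepatocyte-class genes, 5 held GTTAAT on either strand (C4bp, C6, C8a, C8b and Hc), as did 4.81% of 21757 protein-coding promoters. In the hepatocyte class the windows of C8b, C8g, C9, Cfb and Hc overlap annotated exons. GTTAAT was also found in 1 of the 7 macrophage-class genes (Cfp) and 1 of the 8 from several sources (C7). The C/EBP motif TTGCNNAA was found in 2 of the 15 (C3 and C9) and in 7.23% of all. GAGGAA was found in 1 of the 15. The 3 motifs do not overlap each other's letters in these 6 windows.

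**Figure D3:**
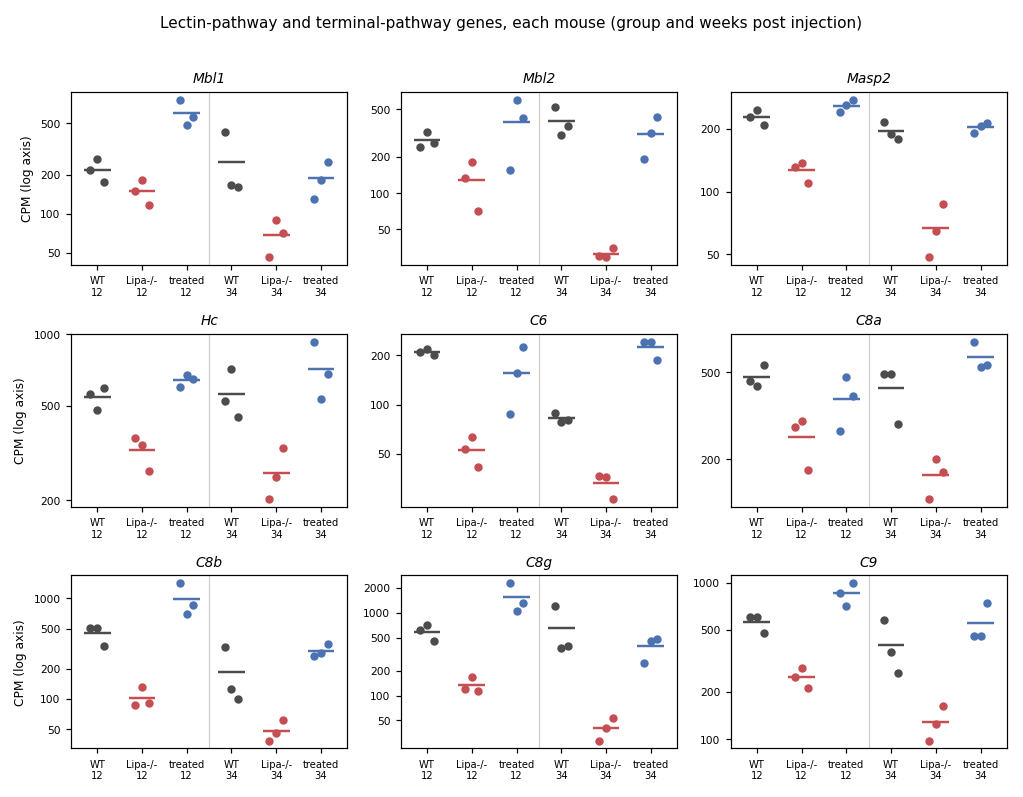
CPM on a log axis of 9 lectin-pathway and terminal-pathway genes in each mouse (points) with the group mean (bars), for WT, Lipa-/- (KO) and rAAV8-treated Lipa-/- (KOT) mice at 12-weeks and 34-weeks post-injection. Untreated Lipa-/- mice are lowest in C8b, C8g, C6 and, at 34-weeks, Mbl2. Treated mice at 12-weeks are above WT mice in C8b, C8g, Mbl1, C9 and, by a small margin, Hc.

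Of the remaining regulators only Cd59a was called, at 34-weeks. Cd59a encodes an inhibitor of the membrane attack complex. Cd59a held 126, 132 and 101 CPM in WT and 95.2, 88.8 and 89.1 CPM in Lipa-/- mice at 12-weeks. The groups were apart by a small margin in CPM. They overlapped in TPM, at 68.6 ± 2.98 (SD, n = 3) in WT and 73.4 ± 3.07 in Lipa-/- mice. At 34-weeks Cd59a held 234, 111 and 117 CPM in WT and 52.1, 54.3 and 75.6 CPM in Lipa-/- mice, with all Lipa-/- mice lower. Cd59a gave a log2 fold change of -0.39 ± 0.33 (SE, edgeR adjusted p = 0.374) at 12-weeks and fell, with a log2 fold change of -1.34 ± 0.33 (SE, edgeR adjusted p = 0.00333) at 34-weeks, a call lost without WT mouse 1 and under total counts, at -0.66, and limma on TPM, at -0.59. Cd55, the decay-accelerating factor, gave a log2 fold change of -0.74 ± 0.43 (SE, edgeR adjusted p = 0.19) and -0.44 ± 0.43 (SE, edgeR adjusted p = 0.421). Serping1, the C1 inhibitor, gave a log2 fold change of 0.39 ± 0.23 (SE, edgeR adjusted p = 0.183) and 0.04 ± 0.23 (SE, edgeR adjusted p = 0.9). Cfd, the factor D gene, which adipocytes express strongly, ranged from 0.116 to 3.60 CPM over all 18 mice and was not called, with a log2 fold change of 0.95 ± 1.24 (SE, edgeR adjusted p = 0.578) and -2.55 ± 1.39 (SE, edgeR adjusted p = 0.144).

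The contrast of macrophage and hepatocyte products was also read within each library from summed TPM. Per 100 TPM of the 15 hepatocyte-class genes, the 7 macrophage-class genes held 2.34, 3.58 and 1.52 in WT and 14.9, 24.7 and 17.1 in Lipa-/- mice at 12-weeks. At 34-weeks they held 3.16, 4.26 and 2.89 in WT and 25.5, 30.3 and 10.0 in Lipa-/- mice. All Lipa-/- libraries lay above all WT libraries at both times. The hepatocyte class as a whole was not lower in its sum. Its summed TPM was 4282 ± 352 (SD, n = 3) in WT and 6744 ± 1515 in Lipa-/- mice at 12-weeks. At 34-weeks it was 5282 ± 735 and 7223 ± 877. In CPM the sum was 10390 ± 786 and 11490 ± 2611 at 12-weeks and 11260 ± 1678 and 11970 ± 2518 at 34-weeks. Under limma on TPM the median log2 fold change of all tested genes was itself 0.366 at 12-weeks and 0.542 at 34-weeks. Markers of hepatocytes had sums of 94550 to 120300 CPM in WT and 96150 to 112700 CPM in Lipa-/- mice at 12-weeks and 91010 to 121000 and 59960 to 105500 CPM at 34-weeks, with 2 of 10 called at 12-weeks, 1 in each direction, and 4 lower at 34-weeks. In TPM these marker sums were 77450 to 96970 in WT and 131100 to 136700 in Lipa-/- mice at 12-weeks. At 34-weeks they were 92210 to 104800 and 108100 to 142200 TPM.

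The composition of the hepatocyte class shifted. C3, C4b and Cfb together, a trio chosen after their values were seen, made up 35.7%, 35.9% and 45.5% of its TPM in WT and 75.7%, 67.1% and 65.3% in Lipa-/- mice at 12-weeks, and 36.5%, 52.5% and 46.1% and 78.9%, 82.3% and 77.2% at 34-weeks. Lipa-/- libraries were above all WT libraries at both times. C8g alone made up 13.8% ± 2.40 (SD, n = 3) in WT and 3.04% ± 0.561 in Lipa-/- mice at 12-weeks and 13.4% ± 6.01 and 1.13% ± 0.255 at 34-weeks, without overlap. Of 10 acute phase genes, a group of plasma proteins that hepatocytes make in inflammation, 7 rose at 12-weeks and 6 at 34-weeks, with sums of 4577 to 5720 CPM in WT and 15820 to 34610 CPM in Lipa-/- mice at 12-weeks and 4440 to 12140 and 12470 to 30610 CPM at 34-weeks. Their relation to the shift was not tested.

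**Figure D4:**
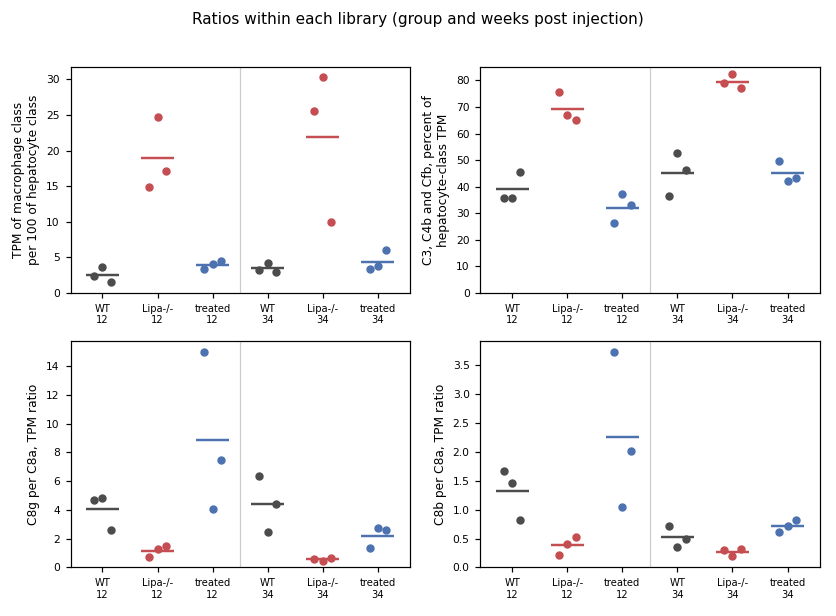
Ratios of summed or single TPM values within each library (points) with the group mean (bars), for WT, Lipa-/- (KO) and rAAV8-treated Lipa-/- (KOT) mice at 12-weeks and 34-weeks: macrophage class per 100 of hepatocyte class, the percentage of hepatocyte-class TPM held by C3, C4b and Cfb, C8g per C8a and C8b per C8a. The untreated Lipa-/- mice are above the WT mice in the upper panels and below them in the lower ones.

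In rAAV8-treated Lipa-/- mice at 34-weeks, 1 of the 30 members was called against WT mice, where 0.220% of all tested genes were called, 0.131% as higher. It was C6, which held 243, 241 and 188 CPM in treated and 88.5, 77.9 and 80.1 CPM in WT mice. Treated mice were all above the WT mice of that time and close to the WT mice of 12-weeks, which held 209, 219 and 201 CPM. C6 gave a log2 fold change of 1.45 ± 0.27 (SE, edgeR adjusted p = 0.0357), and the call was lost in each of the 6 fits that left out a mouse of the groups compared, with limma on TPM (adjusted p of 0.0519) and when only the 2 groups were fitted. The groups did not overlap for 5 members, where 8.89% of all tested genes did not overlap. The class medians were 0.35 for the macrophage class and 0.07 for the hepatocyte class.

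In treated mice at 34-weeks 0 of the 7 macrophage-class genes were called, with log2 fold changes from -0.29 to 1.01 against WT mice. An unadjusted p under 0.05 in edgeR was reached by 1 of them. C1qa held 46.2, 53.9 and 115 CPM and C3ar1 5.57, 2.40 and 5.14 CPM, with a log2 fold change of 0.28 ± 0.52 (SE, edgeR adjusted p = 0.984) for C1qa and 1.01 ± 0.37 (SE, edgeR adjusted p = 0.649) for C3ar1. Both groups overlapped their WT values. C8g held 249.7, 451 and 481 CPM and Mbl2 193, 316 and 428 CPM, with a log2 fold change of -0.73 ± 0.43 (SE, edgeR adjusted p = 0.938) and -0.34 ± 0.41 (SE, edgeR adjusted p = 0.971). These ranges overlapped the WT ranges as well. Treated mouse 12 stood apart from the other treated mice, with the highest C1qa, C5ar1 at 2.22 CPM and Cfp at 45.7 CPM, and its 8 neutrophil markers summed to 794 CPM, where the lowest treated mouse held 2.79 CPM and WT mice 1.95 to 7.14 CPM. Without it the median log2 fold change of the macrophage class was -0.07, and the part of neutrophils was not tested. Macrophage class per 100 TPM of hepatocyte class was 4.37 ± 1.43 (SD, n = 3) against 3.44 ± 0.725 in WT mice, and C3, C4b and Cfb held 45.0% ± 4.08 of the hepatocyte class against 45.0% ± 8.05. Among 8 macrophage markers 0 were called and 1 had an unadjusted p under 0.05 in edgeR. Their log2 fold changes ran from -0.41 to 1.08, with sums of 189 to 514 CPM in treated and 141 to 252 CPM in WT mice. Standard errors of the members' log2 fold changes ran from 0.17 for C1s1 to 0.75 for C7 and 1.21 for Cfd.

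At 12-weeks treated mice differed more from WT mice. Of the 30 members 10 were called, 9 higher and 1 lower, where 25.5% of all tested genes were called, 13.6% higher and 12.0% lower. The groups did not overlap for 19 members, where 52.5% of all tested genes did not overlap. Macrophage-class genes among them were C1qa, C1qb, Cfp and C3ar1. Markers of other cells moved with them: of 8 macrophage markers 4 rose and 1 fell, with sums of 565 to 2288 CPM in treated and 96.1 to 161 CPM in WT mice, and 4 of 8 stellate cell and fibroblast markers, 3 of 5 T and NK cell markers, 2 of 8 neutrophil markers and 4 of 10 acute phase genes rose. The part of these markers in the rises was not tested. Of the summed macrophage-marker TPM, Lyz2 alone held 91.4% to 96.7% in treated and 44.7% to 74.7% in WT mice. Cfp held 63.2, 57.3 and 55.0 CPM, against 17.0, 26.6 and 9.58 CPM in WT mice. The treated mice were tight and above all WT mice. Cfp rose, with a log2 fold change of 1.72 ± 0.42 (SE, edgeR adjusted p = 0.00802) and was the only one of the 10 called under all alternatives. C3ar1 held 9.72, 4.78 and 4.06 CPM, above the WT mice but below the untreated Lipa-/- mice. C3ar1 rose, with a log2 fold change of 2.50 ± 0.41 (SE, edgeR adjusted p = 0.00184) and lost its call only with limma on TPM, where the adjusted p was 0.0657. C5ar1 at 0.875, 0.326 and 1.07 CPM overlapped the WT mice, with a log2 fold change of 0.56 ± 0.56 (SE, edgeR adjusted p = 0.446). C1qa rose, with a log2 fold change of 1.61 ± 0.53 (SE, edgeR adjusted p = 0.0269) and C1qb with 1.39 ± 0.47 (SE, edgeR adjusted p = 0.0294), and both calls were lost under total counts.

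Among hepatocyte-class genes, C8b, C8g and Mbl1 were called above WT levels in treated mice at 12-weeks. C8g held 2251, 1031 and 1308 CPM, where WT mice held 614, 703 and 455 CPM. C8b held 1411, 692 and 861 CPM and Mbl1 754, 482 and 554 CPM. Treated mouse 10 was the highest in all of these, and no treated mouse overlapped the WT mice. C8g rose, with a log2 fold change of 1.37 ± 0.43 (SE, edgeR adjusted p = 0.0223), C8b with 1.14 ± 0.39 (SE, edgeR adjusted p = 0.031) and Mbl1 with 1.45 ± 0.38 (SE, edgeR adjusted p = 0.00993). Under total counts the log2 fold changes were 0.94, 0.70 and 1.03, and only Mbl1 kept its call. In CPM every treated mouse was also above every WT mouse for C4bp, Hc, C9, Cfb and Cfi, which were not called.

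Cd55 and Cd59a, which encode inhibitors on cell surfaces, rose in treated mice at 12-weeks as well. Other membrane inhibitors, outside the members, did not. Susd4 was lower, at 7.97, 1.41 and 15.3 CPM in treated and 34.2, 34.5 and 35.4 CPM in WT mice. Cd46 and Cd59b overlapped the WT mice. Cd55 held 60.1, 17.9 and 18.5 CPM in treated and 13.2, 15.8 and 9.37 CPM in WT mice. Treated mouse 10 was far above the others, and the groups did not overlap in CPM. In TPM they overlapped, at 5.74, 5.61 and 4.49 in WT and 15.5, 6.40 and 5.03 in treated mice. Cd55 rose, with a log2 fold change of 1.33 ± 0.43 (SE, edgeR adjusted p = 0.0264). Cd59a held 380.0, 206 and 233 CPM and rose, with a log2 fold change of 1.19 ± 0.33 (SE, edgeR adjusted p = 0.0134). Its TPM values in treated mice were also above those of all WT mice. Masp1 fell, from 76.4, 67.6 and 112 CPM in WT to 28.1, 39.4 and 43.3 CPM in treated mice, without overlap in CPM or TPM, with a log2 fold change of -1.21 ± 0.30 (SE, edgeR adjusted p = 0.00861). C3 was below all WT mice too, at 1168, 2588 and 2017 CPM, but its log2 fold change of -0.97 ± 0.36 (SE, edgeR adjusted p = 0.0469) stayed short of the fold threshold, while total counts called it lower at -1.34.

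These calls leaned on single mice. Without WT mouse 3 only Cfp and C3ar1 of the 10 were called, without treated mouse 10 only those and Masp1, and without WT mouse 1 the count was 5. Treated mouse 10 also had the lowest TMM factor, 0.587, and the fewest reads, 17527848.

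**Figure D5:**
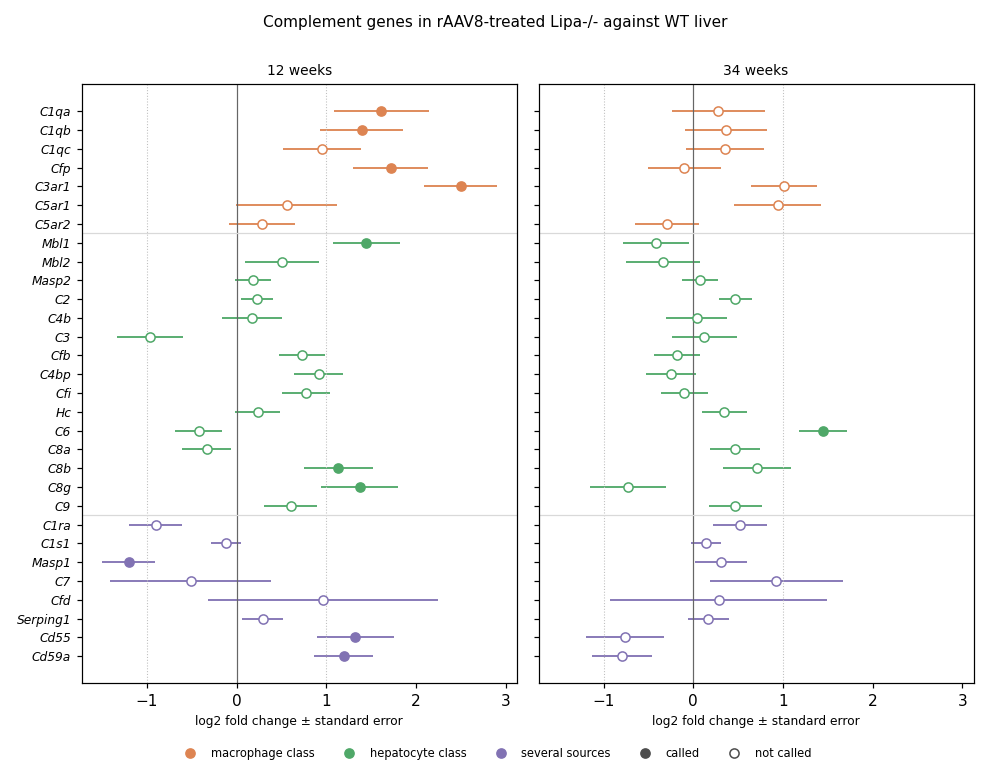
Log2 fold change (x axis, with its standard error) of each of the 30 complement genes in rAAV8-treated Lipa-/- against WT livers at 12-weeks and 34-weeks post-injection, coloured by class, with filled points for called genes and dotted lines at -1 and 1. At 12-weeks 10 genes are filled, Masp1 to the left and 9 to the right, and at 34-weeks only C6.

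Treated and untreated Lipa-/- mice were then compared, a comparison that uses the same untreated mice as that with WT mice. At 12-weeks 16 members were called, 10 higher and 6 lower in treated mice, where 41.5% of all tested genes were called, 16.2% higher and 25.3% lower. At 34-weeks 15 were called, 9 higher and 6 lower, where 31.5% of all tested genes were called, 12.8% higher and 18.6% lower. The 6 lower at 34-weeks were all of the macrophage class, and the 9 higher all of the hepatocyte class. C3ar1 fell, with a log2 fold change of -3.22 ± 0.38 (SE, edgeR adjusted p = 8.21e-06) at 12-weeks and -4.03 ± 0.39 (SE, edgeR adjusted p = 1.17e-06) at 34-weeks. C5ar1 fell, with a log2 fold change of -4.45 ± 0.50 (SE, edgeR adjusted p = 6.12e-06) and -4.07 ± 0.46 (SE, edgeR adjusted p = 4.77e-06). No treated mouse reached an untreated Lipa-/- mouse in either receptor at either time.

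C1qb and C1qc fell at both times and C1qa at 34-weeks. C1qb fell, with a log2 fold change of -2.09 ± 0.48 (SE, edgeR adjusted p = 0.00168) and -2.50 ± 0.48 (SE, edgeR adjusted p = 0.000544), and C1qc with -2.31 ± 0.45 (SE, edgeR adjusted p = 0.000552) and -2.18 ± 0.45 (SE, edgeR adjusted p = 0.000919). C1qa gave a log2 fold change of -1.20 ± 0.52 (SE, edgeR adjusted p = 0.0611) at 12-weeks, not called, and -1.94 ± 0.53 (SE, edgeR adjusted p = 0.00772) at 34-weeks, where treated mouse 12 overlapped Lipa-/- mouse 6 and the call was lost without Lipa-/- mouse 5. Cfp gave a log2 fold change of -0.37 ± 0.41 (SE, edgeR adjusted p = 0.456) at 12-weeks, with treated mice below untreated ones by a small margin, and -1.13 ± 0.41 (SE, edgeR adjusted p = 0.0358) at 34-weeks. Scaling by total counts called Cfp lower at 12-weeks as well, with -1.25.

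Of the 15 hepatocyte-class genes, 8 were called higher in treated than in untreated mice at 12-weeks and 9 at 34-weeks. C8g rose, with a log2 fold change of 3.52 ± 0.47 (SE, edgeR adjusted p = 2.27e-05) at 12-weeks and 3.26 ± 0.46 (SE, edgeR adjusted p = 3.51e-05) at 34-weeks, and C8b with 3.27 ± 0.42 (SE, edgeR adjusted p = 1.61e-05) and 2.65 ± 0.41 (SE, edgeR adjusted p = 7.21e-05). Mbl2 rose, with a log2 fold change of 1.62 ± 0.42 (SE, edgeR adjusted p = 0.0045) at 12-weeks, where treated mouse 10 overlapped the untreated mice, and with 3.32 ± 0.45 (SE, edgeR adjusted p = 2.44e-05) at 34-weeks, where no mice overlapped. C6 rose, with a log2 fold change of 1.56 ± 0.27 (SE, edgeR adjusted p = 0.000232) and 2.76 ± 0.29 (SE, edgeR adjusted p = 2.01e-06). C3 was the hepatocyte-class gene that fell, with a log2 fold change of -1.67 ± 0.37 (SE, edgeR adjusted p = 0.00144) at 12-weeks, and it gave a log2 fold change of -0.74 ± 0.36 (SE, edgeR adjusted p = 0.117) at 34-weeks. The calls of C8b, C8g and C3 at 12-weeks held under all alternatives, whereas C6, C9, Cd59a, Masp2, Mbl2 and C4bp lost theirs there under total counts.

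Between the time points few members changed in WT or untreated Lipa-/- mice. In WT mice 1 member was called, C6, which was lower at 34-weeks, with a log2 fold change of -1.35 ± 0.27 (SE, edgeR adjusted p = 0.0418), where 0.323% of all tested genes were called. That call was lost whichever mouse was left out, under total counts, with limma on TPM and with only the groups compared. In Lipa-/- mice 1 was called, Mbl2, which was lower, with a log2 fold change of -2.03 ± 0.43 (SE, edgeR adjusted p = 0.0446), where 0.495% were called. Its values were 133, 179.7 and 70.2 CPM at 12-weeks and 29.8, 29.2 and 34.9 CPM at 34-weeks, without overlap, but the call was lost in 4 of the 6 fits that left out a mouse, all but those without Lipa-/- mouse 9 of 12-weeks or mouse 6 of 34-weeks. In treated mice 10 were called, 3 higher and 7 lower, where 32.0% of all tested genes were called. C1ra, C3 and Masp1 were the higher ones, C3 with a log2 fold change of 1.32 ± 0.37 (SE, edgeR adjusted p = 0.00869). C8g, C8b, C4bp, Mbl1, Cfp, Cd55 and Cd59a were lower, C8g with a log2 fold change of -1.96 ± 0.44 (SE, edgeR adjusted p = 0.00272) and Cd55 with -1.98 ± 0.44 (SE, edgeR adjusted p = 0.00269), and for C4bp limma on TPM gave 0.06 in place of -1.09.

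An interaction term tested whether the contrast with WT mice shifted between the times. For untreated Lipa-/- mice edgeR called 0 members at an adjusted p under 0.05, 4 had an unadjusted p under 0.05 and DESeq2 called 1, where 0.0619% of all tested genes were called. Mbl2 gave a log2 fold change of -2.55 ± 0.59 (SE, edgeR adjusted p = 0.136). For treated mice 9 members were called, 3 higher and 6 lower, where 18.4% of all tested genes were called. Without WT mouse 1 or 3 of 12-weeks, or treated mouse 9 of 34-weeks, the count was 0. C6 changed most upward, with a log2 fold change of 1.87 ± 0.38 (SE, edgeR adjusted p = 0.0237), and C8g most downward, with a log2 fold change of -2.10 ± 0.61 (SE, edgeR adjusted p = 0.0304).

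Among 30 further complement genes listed beside the members, 25 were tested, and between Lipa-/- and WT mice 5 were called higher and 4 lower at 12-weeks, which became 5 and 8 at 34-weeks, where 29.3% and 36.3% of all tested genes were called. The integrin chains of the complement receptors for iC3b rose. Itgam, the alpha chain of complement receptor type 3, held 0.214, 1.10 and 0.366 CPM in WT and 31.4, 34.5 and 74.6 CPM in Lipa-/- mice at 12-weeks, and Itgax, that of type 4, held 0.268, 0.0957 and 0.262 and 61.1, 58.0 and 19.1 CPM. Both were far above WT levels in all 3 Lipa-/- mice. Itgam rose, with a log2 fold change of 6.34 ± 0.81 (SE, edgeR adjusted p = 1.35e-05), Itgax with 7.77 ± 0.79 (SE, edgeR adjusted p = 1.25e-06) and their shared beta chain Itgb2 with 5.47 ± 0.41 (SE, edgeR adjusted p = 7.05e-08). Vsig4, the complement receptor of Kupffer cells, was not called and held 12.5, 18.8 and 10.6 CPM in WT and 14.2, 17.7 and 1.899 CPM in Lipa-/- mice.

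Susd4, a membrane inhibitor of complement, held 34.2, 34.5 and 35.4 CPM in WT and 0.745, 0.854 and 0.687 CPM in Lipa-/- mice at 12-weeks and fell, with a log2 fold change of -5.50 ± 0.62 (SE, edgeR adjusted p = 3.71e-06). In treated mice at 12-weeks 7 of the 25 were called against WT mice, 6 higher and 1 lower, where 25.5% of all tested genes were called. At 34-weeks edgeR called 0 of them, with 6 at an unadjusted p under 0.05.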

How the data were processed

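RNA was sequenced from frozen liver of 18 mice after poly(A) selection. The authors assigned the reads to mouse Ensembl transcripts of GRCm39 by Salmon, and tximport collapsed the transcripts to genes. The deposited table of estimated counts is not normalized. The deposited TPM values were computed by the authors within each library, and a deposited table of gene lengths, in bases, comes from the same step. A further deposited table holds log2 fold changes and p values of the authors' DESeq2 comparisons (version 1.40.1 in the submitters' processing notes) and was not used. Every count column matched a labelled mouse.

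Counts were rounded and scaled with TMM factors. Genes with more than 100 reads over all libraries were tested in R 4.3.3 with edgeR 4.0.16, as 1 quasi-likelihood fit with 6 group means and no replicate block, and two-sided p values were adjusted by the Benjamini-Hochberg method over 14533 genes in each of 11 comparisons. Calls needed a log2 fold change beyond 1 in either direction with an adjusted p under 0.05. With 3 mice in each group, p values rest on the edgeR model. A count of 0 allows up to 3 reads, 0.0946 to 0.291 CPM depending on the library, which covers counting error only. Alternatives were DESeq2 1.42.0, upper quartile factors, total counts without factors, no filter, gene length offsets, limma 3.58.1 on log2(TPM + 0.5), a fit of only the groups compared, an adjusted p under 0.01, the mouse number as a block for WT mice and, added after seeing the data, for treated mice, and each mouse left out in turn. The procedure was tested on simulated data.

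The members, their classes and the lists of markers and of further complement genes were chosen with earlier results of these data known. All 30 members are named, with values per mouse for those called between Lipa-/- and WT mice. Gene positions and starts came from GENCODE on GRCm39, where all 30 had a promoter. Motifs were searched on both strands. Values of some of the further complement genes are not reported here.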

Additional observations from a re-analysis of the deposited data

Results flagged for a closer look

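The difference between rAAV8-treated Lipa-/- and WT mice changed between 12-weeks and 34-weeks for 9 members, as tested by the interaction term in edgeR. The log2 change of the difference from 12-weeks to 34-weeks was 1.87 for C6, 1.51 for Masp1 and 1.43 for C1ra. It was -2.10 for C8g, -2.09 for Cd55, -1.99 for Cd59a, -1.87 for Mbl1, -1.82 for Cfp and -1.16 for C4bp. Adjusted p values in edgeR lay between 0.0237 and 0.0469, and 18.4% of all tested genes were called in the same test. Leaving out WT mouse 1 or 3 of 12-weeks or treated mouse 9 of 34-weeks reduced the count to 0. The 12-weeks and 34-weeks libraries carry different study codes, so time and code cannot be told apart.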

How the results depend on the processing

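Of 30 members, 9 of the 12 called between Lipa-/- and WT mice at 12-weeks were called under every alternative, 8 of 17 at 34-weeks, 1 of 10 between treated and WT mice at 12-weeks and 0 of 1 at 34-weeks, and between treated and untreated Lipa-/- mice 7 of 16 and 10 of 15. Over the log2 fold changes of the members, 2645 alternative values kept their direction and call, 242 lost a call, 63 gained one, 121 turned in direction without a call in either fit and 4 turned in direction with a call in at least 1 fit. Those 4 came from limma on TPM: C4b with 1.21 between Lipa-/- and WT mice at 34-weeks and -1.06 between treated and untreated mice at 34-weeks, C4bp with -0.10 between treated and untreated mice at 12-weeks and 0.064 between the times of treated mice. The causes were not tested.

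Class medians moved with the scale. Between Lipa-/- and WT mice at 12-weeks the macrophage median was 3.74 under total counts and 3.67 with limma on TPM, and the hepatocyte median -0.28, 0.028 and, with gene length offsets, -0.45. At 34-weeks these were 3.17 and 3.06 for macrophage and -0.66 and -0.61 for hepatocyte genes. Between treated and WT mice at 12-weeks they were 1.02 and 0.80, and 0.18, 0.068 and, with length offsets, 0.71.

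Counts of called members between treated and WT mice at 12-weeks were 6 under total counts, 5 with limma on TPM and 4 at an adjusted p under 0.01. At 34-weeks the count was 0 with limma on TPM, with only the groups compared and at an adjusted p under 0.01. Between the times of WT mice it was 0 under total counts, with only the groups compared, at an adjusted p under 0.01 and with the replicate block. Between the times of untreated Lipa-/- mice it was 2 with DESeq2 and 0 with upper quartile factors, total counts, only the groups compared or an adjusted p under 0.01. The interaction for untreated mice gave 1 with DESeq2, and that for treated mice 5 with limma on TPM and 0 with only the groups compared or an adjusted p under 0.01.

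With each mouse left out in turn, counts of called members were 10 to 12 and 15 to 16 between Lipa-/- and WT mice at 12-weeks and 34-weeks, 2 to 12 and 0 to 0 between treated and WT mice, 15 to 17 and 13 to 16 between treated and untreated mice, 0 to 1, 0 to 2 and 7 to 11 between the times of WT, untreated and treated mice, and 0 to 0 and 0 to 10 for the interactions of untreated and treated mice. The macrophage median was 2.93 to 3.56 and 1.99 to 2.89 for Lipa-/- and 1.06 to 1.97 and -0.07 to 0.53 for treated against WT mice, lowest in Lipa-/- mice at 34-weeks without mouse 5. The hepatocyte median was -0.84 to -0.62, -1.38 to -1.15, 0.21 to 0.64 and 0.014 to 0.37. A fit without 1 mouse leaves 2 in that group, with the spread shared over all groups.

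Between the times WT mice share numbers 1, 2 and 3, treated mice 11 and 12 and Lipa-/- mice 5, all of different animals. Deviations of same-numbered mice correlated at 0.0778, -0.243 and 0.464 in WT, -0.0748 and -0.261 in treated and 0.21 in Lipa-/- mice, so the numbers do not pair them. With the replicate block in treated mice, added after seeing the data, the count between the times was 4. Depth limited C7 and C5ar1, whose folds rest on few reads in WT mice, and Cfd.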

Other observations

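Further ratios of TPM values within a library are given as means ± SD of 3 mice, with no test. Mbl2 per Mbl1 was 1.49 ± 0.245 in WT, 0.891 ± 0.190 in untreated and 0.812 ± 0.557 in treated Lipa-/- mice at 12-weeks, and 2.06 ± 0.656, 0.538 ± 0.184 and 1.94 ± 0.0726 at 34-weeks. C6 per Hc was 0.505 ± 0.0454, 0.191 ± 0.0368 and 0.291 ± 0.133 at 12-weeks. At 34-weeks it was 0.185 ± 0.0486 in WT, 0.184 ± 0.0739 in untreated and 0.436 ± 0.170 in treated Lipa-/- mice. C3 per Cfi, a substrate and the protease that inactivates its product, was 3.90 ± 1.35, 6.96 ± 3.07 and 1.14 ± 0.537 at 12-weeks and 4.32 ± 1.53, 10.5 ± 2.48 and 4.50 ± 1.04 at 34-weeks.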
